A study of Mus musculus with 2 samples.

Results

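This account covers 37 genes of the immediate early and heat shock response in sorted adipocyte precursor cells of mouse pups, 27 in the immediate early arm and 10 in the heat shock arm. The genes were taken by symbol from the deposited matrix, in which all 37 were found among 27998 genes. The cells came from wild-type (WT) pups aged 12 days that had been nursed by foster dams with milk fat of High or Low n-6/n-3 polyunsaturated fatty acid (PUFA) ratio, 1 sample per diet. Subcutaneous adipose tissue was digested with enzymes, and adipocyte precursors, the fibroblast-like cells that form fat cells, were sorted by flow cytometry from the stromal pellet. The labels describe the captured cells both as fresh and as frozen in serum with DMSO, thawed and cleared of permeable cells, and no undigested or unsorted sample was analysed here. The matrix holds 2 libraries told apart by a barcode suffix that no label ties to a diet, so they are called library 1 and library 2. The number of pups pooled is not given, and with 1 library per diet no replicate check or p-value is possible.

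Immediate early genes are transcribed within minutes of a stimulus, from factors already present in the cell and without new protein synthesis. Many encode transcription factors of the AP-1, EGR and NR4A families, and others encode proteins that switch the response off again, such as phosphatases, signalling inhibitors and factors that speed mRNA decay. Heat shock genes encode chaperones that hold or refold unfolding proteins, and heat shock factor 1 induces the stress-inducible ones through heat shock elements near their start sites, while other chaperones are made in every cell. Both programmes are known to respond to the handling of tissue and cells as well as to signals in the tissue.

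Library 1 held 3321 barcodes and library 2 held 3584, beside 3000 sorted cells per condition in the labels, with 42092816 and 43491307 unique molecular identifiers (UMIs, each a tagged transcript 3′ end). Of 6877 cells kept, 6763 fell into 7 precursor clusters. In these, the precursor markers Pdgfra (129 and 133 CPM, UMIs of the gene per 1000000 UMIs, in libraries 1 and 2), Cd34 (818 and 860) and Ly6a (3043 and 2855) were present. The endothelial marker Pecam1 was at 7.74 and 6.10 CPM and the leukocyte marker Ptprc at 0.220 and 0.281 CPM. The 5 erythroid markers, hemoglobin genes among them, summed to 1054 CPM in library 1 and 20.1 CPM in library 2, and the only erythroid cluster, of 18 cells, came from library 1. The members of both arms were kept out of the genes used for clustering. Cluster 2 (669 cells) was called Dpp4-type progenitor-like from 4 of 12 markers, cluster 4 (337 cells) F3-type stromal-like from 8 of 9, cluster 5 (1378 cells) committed preadipocyte-like from 7 of 12 and cluster 3 (236 cells) cycling from 14 of 14. Clusters 0 (2377 cells, led by Ptgs2, Igfbp5 and Krtdap), 1 (1681 cells, with Cilp and Eln among its leading genes) and 8 (85 cells, led by Hist1h1c) stayed unnamed. Doublets remain among the cells, since the caller marked only 0.116% of barcodes.

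The promoters show what parts the arms in sequence. RefSeq windows of the 250 bases before a start site (GRCm38.p6) were matched for 23 of 27 immediate early and 8 of 10 heat shock genes. A gene with several start sites, such as Egr2 or Maff, counted when any of its windows held the letters. The shares of all windows count each window once and so are in a different unit. A heat shock element, searched on both strands as GAANNTTC or TTCNNGAA, was found in 7 of 8 heat shock genes (Hspa1a, Hspa1b, Hspb1, Dnaja1, Hsph1, Hspd1 and Hspe1, not Dnajb1), in 4 of 23 immediate early genes (Cyr61, Egr2, Fosl2 and Jun), and in 12.84% of all 32851 windows. The short cyclic AMP response element TGACGT was found in 8 of 23 immediate early genes (Fos, Atf3, Btg1, Btg2, Cyr61, Dusp1, Egr2 and Maff), in 0 of 8 heat shock genes and in 6.469% of all windows. The full palindrome TGACGTCA, which contains it, was found in Btg2, Dusp1 and Maff and in 1.546% of windows. The EGR site GCGNGGGCG was in 9 of 23 immediate early genes, in 1 of 8 heat shock genes and in 4.697% of windows. The AP-1 site TGANTCA was in no member's window and in 6.749% of all windows, which says only that these letters are not there. Such matches are descriptions of letters and not evidence that a factor bound in these cells.

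The windows of 3 heat shock genes and a shared site are shown because these genes parted from one another in the cells below, with the heat shock element in capitals. Hspa1a lies at chr17:34972157-34972406 (minus strand, element starting 104 bases before the start site), Hspb1 at chr5:135887669-135887918 (plus strand, elements at 117 and 97 bases) and Dnaja1 at chr4:40722218-40722467 (plus strand, element at 124 bases). The Dnaja1 window shown is that of the first annotated start site, and the windows of its other start sites held no element. Hspd1 and Hspe1 are neighbours on opposite strands and share 1 site, chr1:55088056-55088079 (plus strand), with overlapping elements. The window of Hspa1b, the second inducible Hsp70 gene, was identical to that of Hspa1a at 247 of 250 bases.
Hspa1a: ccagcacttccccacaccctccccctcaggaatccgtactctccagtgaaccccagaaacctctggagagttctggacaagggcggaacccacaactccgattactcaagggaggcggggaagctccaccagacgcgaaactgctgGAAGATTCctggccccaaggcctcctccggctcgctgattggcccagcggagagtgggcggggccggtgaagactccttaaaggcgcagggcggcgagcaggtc
Hspb1: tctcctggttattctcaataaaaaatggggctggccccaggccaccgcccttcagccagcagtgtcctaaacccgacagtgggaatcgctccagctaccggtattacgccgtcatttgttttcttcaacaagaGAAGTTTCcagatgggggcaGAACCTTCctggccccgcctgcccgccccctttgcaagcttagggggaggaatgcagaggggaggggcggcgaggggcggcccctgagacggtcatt
Dnaja1: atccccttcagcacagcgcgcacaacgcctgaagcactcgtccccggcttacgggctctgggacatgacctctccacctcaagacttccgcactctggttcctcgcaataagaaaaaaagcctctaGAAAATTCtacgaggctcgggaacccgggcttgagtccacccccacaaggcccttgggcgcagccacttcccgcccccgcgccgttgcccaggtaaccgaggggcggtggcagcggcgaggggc
Hspe1 and Hspd1 shared site: ccgTTCTAGAACCTTCCGGAAggc

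Of the immediate early genes, Fos, Btg2 and Egr2 are shown because they followed 3 different orders over the precursor clusters. Capitals mark the cyclic AMP response element in full or in its short form (read on the other strand in Egr2), and in Egr2 also a serum response element (CArG box), which was found in Egr2 and Zfp36 and in 1.467% of all windows. Fos lies at chr12:85473640-85473889 (plus strand), Btg2 at chr1:134079156-134079405 (minus strand) and the Egr2 window shown at chr10:67537619-67537868 (plus strand, the third annotated start site).
Fos: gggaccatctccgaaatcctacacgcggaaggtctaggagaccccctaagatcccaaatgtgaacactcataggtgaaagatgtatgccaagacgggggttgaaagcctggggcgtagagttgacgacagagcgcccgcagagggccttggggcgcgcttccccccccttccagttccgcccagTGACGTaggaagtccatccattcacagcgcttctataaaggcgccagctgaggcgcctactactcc
Btg2: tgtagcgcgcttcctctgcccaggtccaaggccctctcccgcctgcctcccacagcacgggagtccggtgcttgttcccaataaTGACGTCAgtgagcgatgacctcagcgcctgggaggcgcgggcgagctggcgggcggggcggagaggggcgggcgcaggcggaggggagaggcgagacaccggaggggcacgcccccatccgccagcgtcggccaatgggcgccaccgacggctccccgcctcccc
Egr2: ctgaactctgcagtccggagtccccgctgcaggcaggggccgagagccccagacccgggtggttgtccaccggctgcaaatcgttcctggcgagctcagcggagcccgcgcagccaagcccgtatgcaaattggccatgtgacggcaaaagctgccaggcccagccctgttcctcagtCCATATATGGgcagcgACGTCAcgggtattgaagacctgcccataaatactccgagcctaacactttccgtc

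Together the 27 immediate early genes made up 1.32% of all UMIs of precursor cells in library 1 and 1.28% in library 2 (13165 and 12817 CPM), and the 10 heat shock genes 0.292% and 0.284% (2925 and 2841 CPM). The immediate early sum was lowest in cluster 0, at 10802 and 10849 CPM, and highest among precursor clusters in F3-type cells, at 15774 and 16440 CPM. Dpp4-type cells stood at 11935 and 12094 CPM and committed cells at 15534 and 14707 CPM. The heat shock sum followed a like order, from 2509 and 2468 CPM in cluster 0 through 2649 and 2659 CPM in Dpp4-type cells to 3337 and 3121 CPM in committed cells and 3285 and 3414 CPM in F3-type cells. In each of these clusters the libraries lay closer to each other than cluster 0 lay to the committed or F3-type cells. The 18 erythroid cells had 3406 and 708 CPM for the arms.

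The sums hide a split among the AP-1 genes. Fos, the partner of Jun in the AP-1 dimer, was at 713 and 794 CPM in cluster 0 (library 1 first here and below), 1920 and 1892 in cluster 1, 1918 and 2418 in Dpp4-type, 1576 and 1203 in cycling, 1958 and 1750 in F3-type, and 1292 and 1085 CPM in committed cells. Jun, its dimer partner, was at 284 and 318 CPM in cluster 0, 676 and 709 in cluster 1, 563 and 685 in Dpp4-type, 682 and 789 in F3-type and 404 and 408 in committed cells. Both were therefore low in cluster 0, intermediate in committed cells and high in cluster 1, Dpp4-type and F3-type cells, with no overlap between these groups of values. Junb and Jund, Jun-family members that weaken or replace Jun in the dimer, had another order. Junb was lowest in Dpp4-type cells (817 and 679 CPM) and stood at 1409 and 1287 CPM in committed cells, and Jund went from 816 and 967 CPM in Dpp4-type cells to 1461 and 1594 CPM in committed ones. Fosb, a Fos-family subunit, was at 358 and 373 CPM in Dpp4-type, 556 and 611 in committed and 766 and 996 CPM in F3-type cells. Fosl2, the remaining Fos-family gene of the arm, ranged from 42.2 to 97.4 CPM over all clusters and libraries.

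The zinc-finger factor Egr1 was lowest in cluster 0 (676 and 604 CPM) and highest in F3-type cells (1189 and 1028 CPM). Its relative Egr2 was at 5.65 and 2.19 CPM in Dpp4-type and 34.5 and 36.5 CPM in F3-type cells, and the orphan nuclear receptor gene Nr4a2 at 9.55 and 4.06 CPM against 50.6 and 42.4 CPM. These were the sharpest state differences of the arm, and both genes stood out in F3-type cells in each library. Nr4a1, which encodes the related receptor Nur77, was at 177 and 194 CPM in F3-type cells, 190 and 186 in cluster 8, 98.6 and 74.7 in Dpp4-type and 51.9 and 45.8 CPM in committed cells. Atf3, a stress-induced factor of the ATF and CREB family, ranged from 339 to 628 CPM over all clusters and libraries. Egr3 was too low to describe, with 1.18 CPM over both libraries, at rank 11324 of 18344 detected genes.

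Myc, a growth regulator, and Maff, a small Maf protein without an activation domain, were lowest in Dpp4-type cells. Myc was there at 62.0 and 48.1 CPM, against 195 and 184 CPM in committed cells, and Maff at 34.3 and 26.6 CPM, against 148 and 138 CPM. Zfp36, whose product tristetraprolin speeds decay of mRNAs with AU-rich elements, was at 892 and 855 CPM in Dpp4-type cells and reached 1824 and 1699 CPM in committed ones. Socs3, an inhibitor of cytokine signalling, went from 460 and 384 CPM to 915 and 818 CPM and reached 994 and 1050 CPM in F3-type cells. Btg1 and Btg2, which restrain proliferation and recruit the deadenylase, were at 351 and 357 CPM and at 270 and 295 CPM in Dpp4-type cells, against 692 and 791 CPM and 541 and 461 CPM in committed cells. Nfkbia, which encodes the inhibitor of NF-kappaB, varied little, from 1023 to 1507 CPM over all clusters and libraries.

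Other members went the opposite way. Rhob, a small GTPase of the endosome and cytoskeleton, was at 308 and 318 CPM in Dpp4-type cells, 166 and 185 CPM in F3-type and 141 and 144 CPM in committed cells. Cyr61 (Ccn1 in RefSeq), a secreted matrix-associated protein, was highest in Dpp4-type cells, at 370 and 367 CPM, and lowest in F3-type cells, at 167 and 186 CPM. Ier5, a nuclear protein of the early response, was lowest in Dpp4-type cells (361 and 319 CPM) and stood at 1038 and 1050 CPM in committed cells, so members that share the name immediate early response gene differed in order: Ier3 was lowest in committed cells (317 and 273 CPM) and Ier2 in cluster 0 (288 and 267 CPM). The growth arrest genes Gadd45b (163 and 121 CPM in Dpp4-type cells, against 262 and 209 CPM in committed ones) and Gadd45g (221 and 220 CPM in Dpp4-type cells, 223 and 203 in committed ones, 419 and 395 in F3-type ones) also differed in order. Dusp1, the phosphatase that turns off MAP kinases, was lowest in cluster 0 (318 and 303 CPM) and stood at 597 and 488 CPM in committed cells.

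Over the 26 immediate early genes that reached 10 CPM in some cluster, the cluster with the lowest level was the same in both libraries for 20, beside 42.9% of the 8146 genes at that level. It was the Dpp4-type cluster for 10 of these (Nfkbia, Jund, Junb, Socs3, Ier5, Btg1, Myc, Maff, Fosl2 and Egr2), beside 6.42% of all genes, and cluster 0 for 6 (Fos, Jun, Egr1, Dusp1, Ier2 and Gadd45b), beside 1.99%. The highest cluster was the same for 15 (54% of all genes), F3-type for 7 (7.38%) and committed for 7 (5.9%). The ratio of the highest to the lowest cluster was at least 2 for 17 of 26 immediate early genes and 5 of 10 heat shock genes, beside 38.4% of all genes, and at least 3 for 7 and 2, beside 16.9%. These shares of all genes were not matched to the levels of the members, which were mostly well above 10 CPM.

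**Figure D1:**
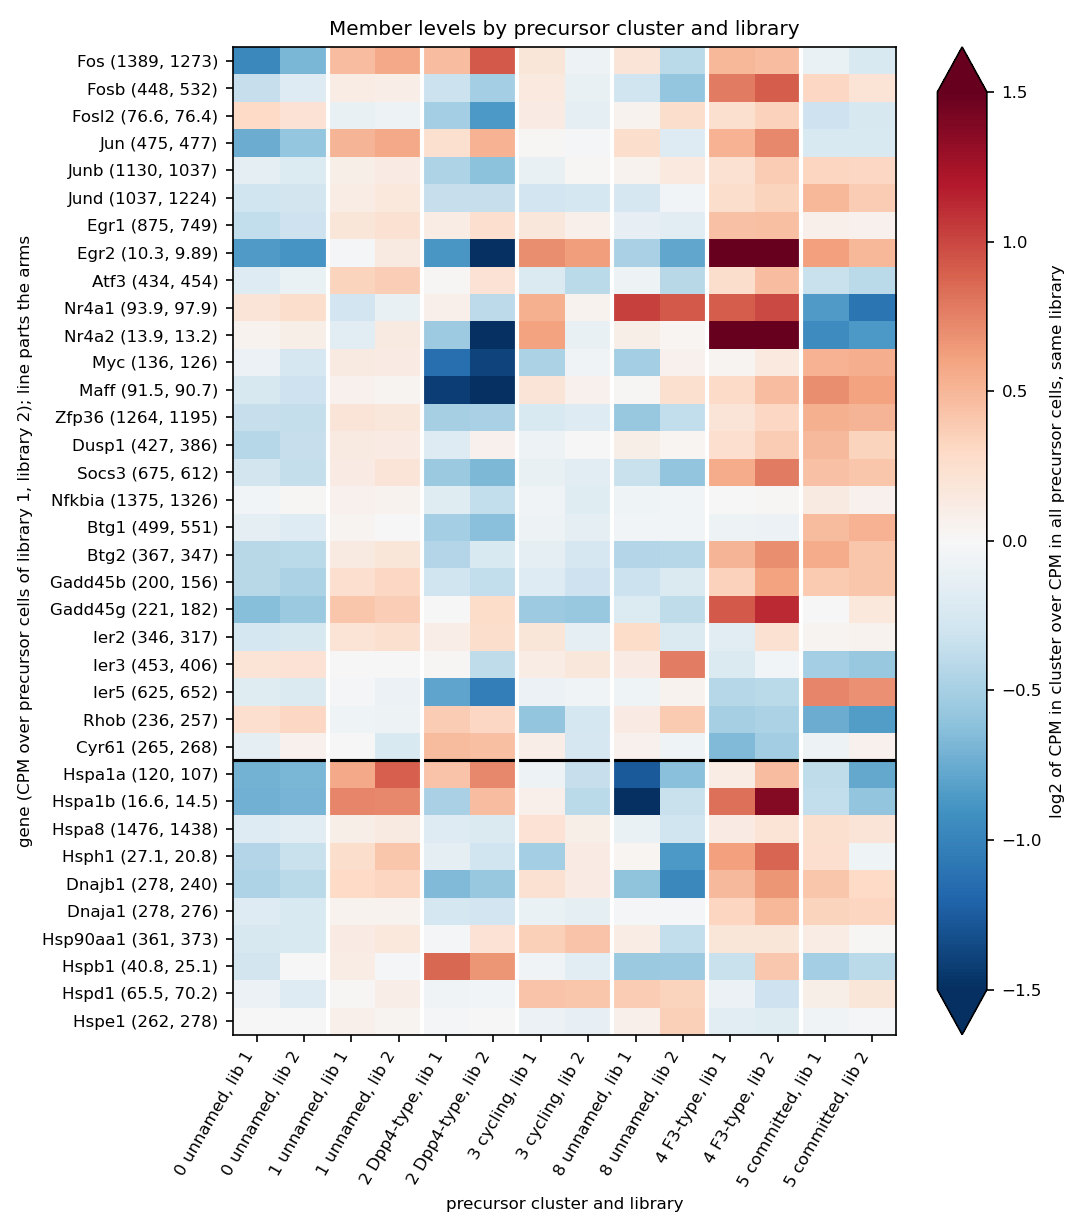
Colour gives the log2 ratio of a member's CPM in a precursor cluster to its CPM in all precursor cells of the same library (blue lower, red higher, cut at 1.5 on either side), with immediate early genes above the black line, heat shock genes below it and each library in its own column. Both columns of a cluster mostly share a colour: Fos and Jun are blue in cluster 0, Maff and Myc in Dpp4-type cells, and Egr2 and Nr4a2 are dark red in F3-type cells. Egr3 is left out for its low level.

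Among the chaperones, the inducible Hsp70 gene Hspa1a was at 73.5 and 66.2 CPM in cluster 0, 178 and 199 in cluster 1, 162 and 175 in Dpp4-type, 114 and 84.1 in cycling, 130 and 147 in F3-type and 91.9 and 62.7 CPM in committed cells. Cluster 1, Dpp4-type and F3-type cells were above cluster 0 and committed cells with no overlap, and these 3 clusters were also high for Fos. Its near copy Hspa1b was at 27.7 and 23.8 CPM in cluster 1, 29.6 and 37.6 in F3-type and 12.9 and 9.63 CPM in committed cells. Within the last 1000 bases, 6.037% of the 90-base windows of the Hspa1a transcript and 17.78% of those of Hspa1b occur in the other gene, so how reads were shared between them is uncertain. Hspa8, the constitutive Hsp70, stayed between 1169 and 1740 CPM over all clusters and libraries. Hsph1, an Hsp110 exchange factor for Hsp70, was at 24.4 and 16.9 CPM in Dpp4-type and 41.5 and 38.1 CPM in F3-type cells.

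The Hsp40 co-chaperones followed another order than Hspa1a. Dnajb1, which delivers clients to Hsp70 and is itself stress-inducible, was at 202 and 180 CPM in cluster 0, 176 and 162 in Dpp4-type, 342 and 300 in cluster 1, 390 and 381 in F3-type and 371 and 295 CPM in committed cells. Dnaja1, a largely constitutive Hsp40, was at 232 and 227 CPM in Dpp4-type, 348 and 391 in F3-type and 350 and 346 CPM in committed cells. In Dpp4-type cells, where Hspa1a was high, both were low, and in committed cells the reverse held. The cytosolic Hsp90 gene Hsp90aa1 was highest in cycling cells (462 and 500 CPM) and the mitochondrial chaperonin gene Hspd1 too (88.4 and 93.7 CPM). Its partner Hspe1 ranged from 234 to 355 CPM over all clusters and libraries. Hspb1, a small heat shock protein that holds unfolding proteins and binds actin, was highest in Dpp4-type cells, at 74.1 and 39.7 CPM, and at 28.7 and 18.9 CPM in committed cells. It was also at 436 and 509 CPM in the 49 endothelial-like cells that were not counted as precursors.

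Differences between classes were then set against all genes, on counts summed over both libraries. A gene was compared when it had at least 10 CPM in 1 class, and 1.5-fold is the size called different here. Intervals are at 95% and cover counting error only. Between committed and Dpp4-type cells, 10.7% of 7112 genes were at least 1.5-fold higher and 20.2% at least 1.5-fold lower in committed cells, with a median log2 fold of −0.19. Of 25 immediate early genes compared, 12 were higher by that size and 4 lower, with a median of 0.48, and of 10 heat shock genes 2 were higher and 2 lower, with a median of 0.097. Maff had the largest log2 fold (2.19, interval 2.0 to 2.38), followed by Egr2 (1.78, 1.27 to 2.33), Myc (1.74, 1.60 to 1.88) and Ier5 (1.60, 1.54 to 1.66). Btg1 (1.08), Zfp36 (1.0), Socs3 (1.0), Btg2 (0.83), Junb (0.81), Jund (0.81), Fosb (0.69) and Gadd45b (0.67) made up the rest of the higher group. Egr2 was compared only through its level in committed cells, so its difference was set in part by that minimum, and Egr3 and Nr4a2 were not compared.

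The lower members were Rhob (−1.13, interval −1.21 to −1.05), Nr4a1 (−0.88, −1.03 to −0.73), Fos (−0.84, −0.87 to −0.81) and Jun (−0.59, −0.64 to −0.53). Fos (−0.57 in library 1 and −1.16 in library 2) and Jun (−0.48 and −0.75) were past 1.5-fold only in library 2 when each library was taken alone, while the other 14 were past it in each, beside 10.8% of genes higher and 20.3% lower in library 1 and 11.5% and 23.4% in library 2. In the heat shock arm Dnajb1 (0.95, 0.86 to 1.04) and Dnaja1 (0.59, 0.52 to 0.67) were higher in committed cells and Hspb1 (−1.38, −1.58 to −1.19) and Hspa1a (−1.14, −1.25 to −1.02) lower. Scaling by TMM, which centres on genes that change little, raised every log2 fold of this comparison by 0.21. It turned the background to 15.1% higher and 12.3% lower, added Dusp1 and Hspa8 to the higher members, took Jun from the lower ones and turned the sign of Egr1, Gadd45g, Ier2, Hsp90aa1 and Hspe1. These calls rest on which cells take the Dpp4-type name. Fos, Jun and Hspa1a lost theirs without the cells of highest doublet score (−0.22, 0.072 and −0.19) and with cluster 0 counted as Dpp4-type (0.18, 0.14 and −0.25). With a stricter cell filter, under which 87.7% of the 2476 cells named Dpp4-type came from cluster 0, all 3 were past the size in the opposite direction (0.91, 0.80 and 0.65) and Hspb1 lost its call (−0.20). At Leiden resolution 1 Fos (−0.49) and Jun (−0.38) were under the size, and Jun also with 3000 variable genes (−0.57). Among the higher members Fosb, Junb and Dnaja1 lost their call under 3 or 4 of 12 alternatives, while the other 10 compared throughout, Dnajb1 included, and Egr2 in the 11 that compared it, stayed past the size, as did Rhob and Nr4a1 among the lower ones. Committed cells were shallower, with a median of 11136 UMIs against 13235 in Dpp4-type cells. With cells thinned at random to 7464 UMIs, and shallower ones left out, no member call of this comparison changed. The clusters were not remade on thinned counts, so the part of depth in their naming was not tested.

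Between F3-type and Dpp4-type cells, which share the Dpp4-type reference with the comparison before, 12.1% of 7231 genes were at least 1.5-fold higher in F3-type cells and 14.2% lower. Of 26 immediate early genes 14 were higher and 2 lower, with a median log2 fold of 0.71 beside −0.11 for all genes. Egr2 (3.04, interval 2.50 to 3.61) and Nr4a2 (2.64, 2.22 to 3.08) led, both compared only through their level in F3-type cells. Maff (1.92), Myc (1.30), Fosb (1.28), Socs3 (1.25), Nr4a1 (1.05), Btg2 (0.96), Fosl2 (0.93), Gadd45g (0.88), Junb (0.81), Gadd45b (0.75), Zfp36 (0.74) and Jund (0.68) followed, and all 14 were past the size in each library, beside 13.5% of genes higher and 15.2% lower in library 1 and 13.5% and 18.5% in library 2. Cyr61 (−1.06, −1.18 to −0.94) and Rhob (−0.83, −0.95 to −0.70) were lower. Fos was at −0.19 (0.03 and −0.47 in libraries 1 and 2), but at 0.83 with cluster 0 counted as Dpp4-type and 1.12 with the stricter cell filter. Of the 16 calls, those of Fosl2, Junb, Jund, Myc, Nr4a1, Zfp36 and Cyr61 were lost under 1 to 4 of 12 alternatives.

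Of the 10 heat shock genes, Dnajb1 (1.18, interval 1.07 to 1.28), Hspa1b (1.16, 0.80 to 1.53), Hsph1 (0.89, 0.57 to 1.21) and Dnaja1 (0.68, 0.58 to 0.78) were higher in F3-type than in Dpp4-type cells, with a median of 0.24 over the arm. Hspb1 was lower (−0.89, −1.19 to −0.60), with −1.20 in library 1 and −0.25 in library 2, and Dnaja1 was just under the size in library 1 (0.58). The Hspb1 call was also lost at Leiden resolution 1 (−0.54), with 3000 variable genes (−0.56), with the stricter filter (−0.0096), without the highest doublet scores (−0.43) and with cluster 0 added (−0.12). Dnaja1 was under the size in 4 of 12 alternatives, and Dnajb1, Hspa1b and Hsph1 kept their calls in all that compared them. F3-type cells had a median of 10852 UMIs, and with thinned counts no member call of this comparison changed. Nr4a1 was thus lower in committed and higher in F3-type cells than in the same Dpp4-type cells.

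**Figure D2:**
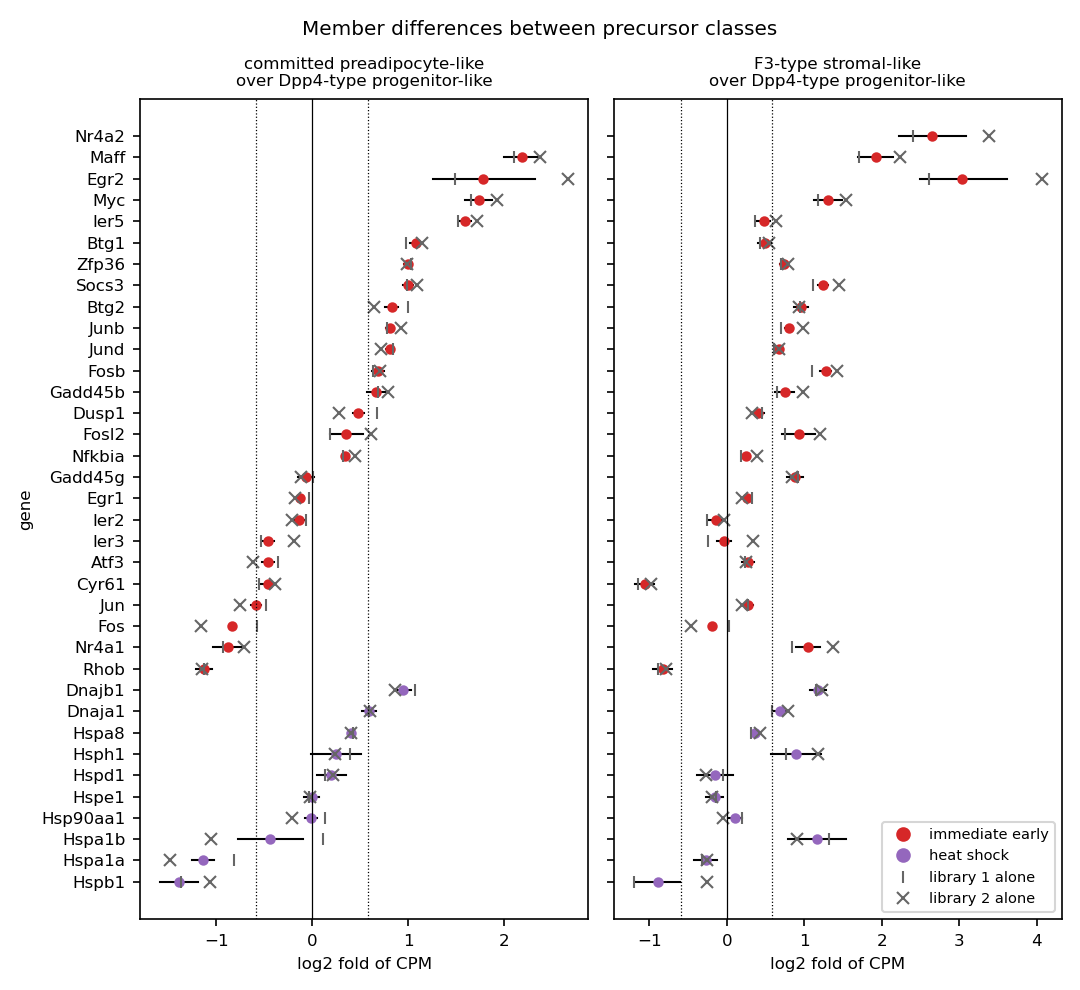
Points give the log2 fold of CPM of each member between classes over both libraries, with bars for the 95% interval (counting error only), ticks and crosses for each library alone, and dotted lines at 1.5-fold. Maff, Egr2 and Myc lie far to the right in both panels, Rhob to the left in both, and Nr4a1 on opposite sides. Nr4a2 did not reach the level minimum in the left panel.

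Cluster 0, the largest and with most Dpp4-type markers below naming (2 of 12 raised, marker sum 6044 and 6062 CPM against 7784 and 7537 CPM in Dpp4-type cells), was the closest comparison. Only 2.89% of 6951 genes were at least 1.5-fold higher in cluster 0 than in Dpp4-type cells and 2.2% lower. Fos was lower in cluster 0 (log2 fold −1.48, interval −1.51 to −1.45), as were Jun (−1.01), Gadd45g (−0.74), Hspa1a (−1.26), Hspb1 (−1.07) and Hspa1b (−0.67). Maff (1.26), Myc (1.03), Nr4a2 (0.93), Fosl2 (0.88) and Ier5 (0.69) were higher. Nr4a2 was compared only through its level in cluster 0, and Hspa1b only through that in Dpp4-type cells, so these differences were set in part by the minimum. In all, 5 immediate early genes were higher and 3 lower, and 3 heat shock genes were lower and 0 higher. In cluster 1, where 7.53% of 7055 genes were higher than in Dpp4-type cells and 5.88% lower, 9 immediate early genes were higher and 0 lower, with Egr2 and Nr4a2 among the 9 compared only through their level in cluster 1. In the heat shock arm Dnajb1 (0.92) and Hspa1b (0.79) were higher in cluster 1 and Hspb1 (−0.78, interval −0.95 to −0.61) lower. The arms' sums in cluster 1 were nearly equal between libraries (14854 and 14628 CPM, 3222 and 3214 CPM).

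Library 2 was next set over library 1 with TMM scaling. In Dpp4-type cells 1.5% of 7069 genes were at least 1.5-fold higher in library 2 and 1.95% lower. With this scaling and minimum none of 24 immediate early genes was past that size (median −0.067), the nearest being Ier3 at −0.58 (interval −0.69 to −0.48). Ier3 was past it with DESeq2 size factors (−0.59), and with thinned counts Ier3 (−0.65), Nr4a1 (−0.66) and Nr4a2 (−1.51) were. With no minimum Egr2 (−1.40), Egr3 (−1.52) and Nr4a2 (−1.26), all under 10 CPM in both libraries, were past it too. Of 10 heat shock genes (median 0.0096), Hspa1b was higher (0.72, 0.19 to 1.25, from 61 and 64 UMIs) and Hspb1 lower (−0.93, −1.23 to −0.64). The Hspa1b call was lost at Leiden resolution 1 (0.53), with 3000 variable genes (0.23), with the stricter filter (−0.19), without the highest doublet scores (0.38) and with cluster 0 added (0.0057), and that of Hspb1 with the stricter filter (−0.55). With thinned counts Hsph1 was also past the size (−0.59, from 55 UMIs in library 1 and 25 in library 2). In committed cells, with a background of 0.989% higher and 0.649% lower, Hsph1 (−0.68, −0.98 to −0.38) and Hspb1 (−0.59, −0.90 to −0.28) were lower in library 2 and no immediate early gene was past the size. Fos leaned in opposite directions, at 0.30 in Dpp4-type, −0.25 in committed and −0.14 in F3-type cells.

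Hspb1 was the member that set the libraries apart over all precursor cells, with 40.8 CPM in library 1 and 25.1 CPM in library 2 (log2 fold −0.71, interval −0.82 to −0.60), where 0.428% of 6777 genes were higher by 1.5-fold and 0.266% lower. It was lower in library 2 in cluster 0 (−0.42), cluster 1 (−0.84), Dpp4-type, cycling (−0.82) and committed cells, but not in F3-type cells (0.065, −0.47 to 0.60). In the thinned cells described next its highest count in a cell was 30 UMIs in library 1 and 11 in library 2, and the share of cells with a UMI was 17.7% and 14.0%. The endothelial markers, whose cells are rich in Hspb1, summed to 33.1 and 27.4 CPM in precursor cells of the libraries, and the erythroid markers to 1054 and 20.1 CPM. Their part in the Hspb1 difference was not tested.

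To describe single cells, each precursor cell was thinned at random to 7464 UMIs, which left 2884 cells of library 1 and 3232 of library 2. The immediate early sum had a median of 90 UMIs per cell in library 1 and 87 in library 2, with 5th to 95th percentiles of 50 to 182 and 49 to 177 UMIs. The heat shock sum had medians of 20 and 19 UMIs, and its highest cell 224 UMIs in library 1 and 101 in library 2. The coefficient of variation (SD over mean) was 0.431 and 0.448 for the immediate early and 0.485 and 0.444 for the heat shock arm. Every cell held immediate early UMIs, the lowest 22 in library 1 and 13 in library 2. All 14 erythroid cells of that depth held them too, from 14 to 53 UMIs, so their presence alone says little about expression. The spread within clusters was wide beside the distance between their medians: 76 and 74 UMIs in cluster 0, 84 and 87 in Dpp4-type, 95 and 92 in cluster 1, 108 and 104 in committed and 105 and 113 in F3-type cells. Dpp4-type cells reached down the farthest, with a 5th percentile of 34 and 27 UMIs, and cluster 1 up the farthest, with a 95th percentile of 216 and 222 UMIs.

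**Figure D3:**
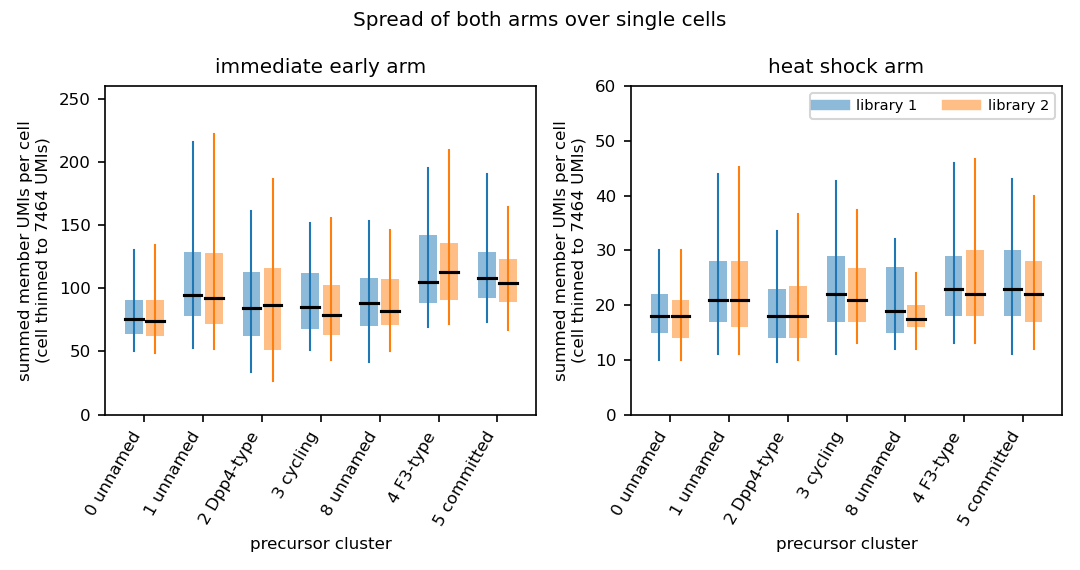
For each precursor cluster and library, black lines give the median sum of member UMIs per cell after thinning to 7464 UMIs, boxes the 25th to 75th and whiskers the 5th to 95th percentile. Immediate early medians run from 74 UMIs in cluster 0 to 113 UMIs in F3-type cells, and the whiskers of all clusters overlap.

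The Fano factor (variance over mean, near 1 for counting noise alone) shows which members carry that spread. It was 2 or more for 20 of 26 immediate early genes and 5 of 10 heat shock genes, beside 3.32% of 7796 genes with a mean of at least 0.05 UMI. Among genes with a mean of at least 1 UMI, where a large factor is easier to reach, it was 2 or more for 19 of 21 immediate early genes, 3 of 5 heat shock genes and 19.2% of all 917. Fos had the highest value of the members at 21.3, with a median of 5 and 4 UMIs per cell, a 95th percentile of 38 UMIs in library 1 and a highest cell of 174 and 132 UMIs. Within the immediate early arm, Jun (7.51) and Zfp36 (4.33) followed. By cluster, the Fos median was 10 and 13 UMIs in Dpp4-type cells and 5 and 5 in cluster 1. The 95th percentile had the opposite order, with 42.9 and 50.8 UMIs in Dpp4-type cells and 51 and 61 UMIs in cluster 1, while the summed levels were close in library 1. At least 1 Fos UMI was found in 96.8% and 95.7% of precursor cells and in 12 of 14 erythroid cells of the same thinned depth, so this share alone says little about expression.

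In the heat shock arm Hspa1a had a Fano factor of 5.79 (6.31 and 5.26 by library), Dnajb1 3.78, Hspb1 3.67 (4.85 and 1.96), Hspa8 2.73 and Hsp90aa1 2.26. Hspa1b (1.76), Dnaja1 (1.46) and Hsph1 (1.25) were under 2, and the mitochondrial pair Hspe1 (1.07) and Hspd1 (1.12) varied little more than counting noise. Hspa1a was found in 39.3% and 36.8% of thinned cells (52.5% and 49.4% before thinning) and in 14.3% of the erythroid cells, with a median of 0 UMIs and a highest cell of 70 and 32 UMIs. Its 95th percentile was 6 UMIs in Dpp4-type cells of both libraries and 6 and 7 UMIs in cluster 1, against 2 UMIs in cluster 0, while the share of cells with a UMI differed less (44.0% and 43.5%, 42.5% and 42.5%, and 36.5% and 35.8%). The clusters thus differed more in the counts of their highest cells than in the share of cells with any Hspa1a UMI.

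**Figure D4:**
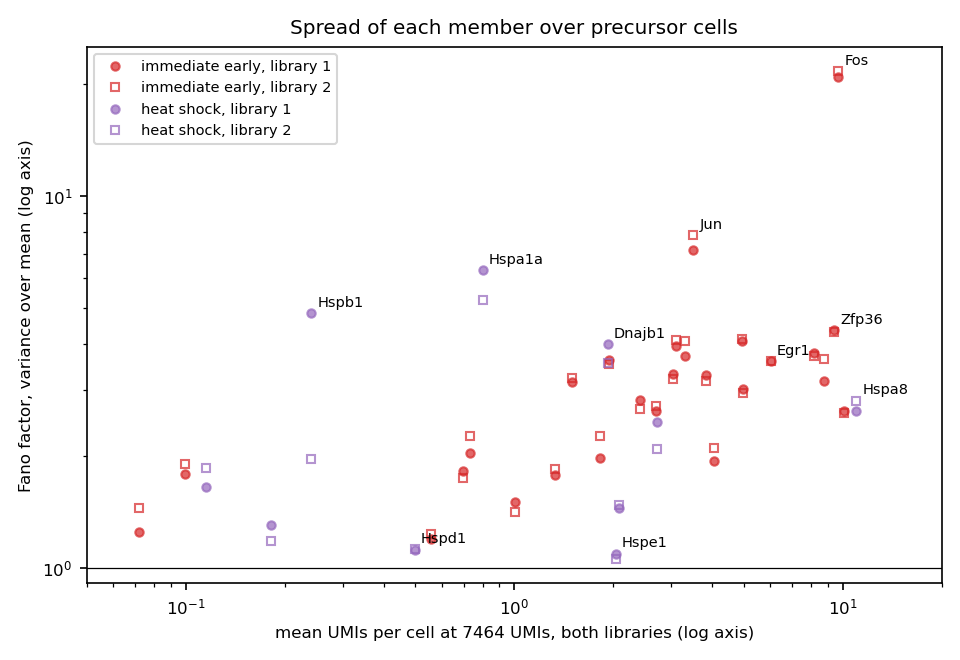
Each member's Fano factor over thinned precursor cells is plotted against its mean UMIs per cell over both libraries, both on log axes, with filled circles for library 1, open squares for library 2 and the line at 1 for counting noise. Fos (21.3 over both libraries) lies above all other members, Hspa1a (5.79) stands out at a mean under 1 UMI, Hspb1 differs between libraries, and Hspe1 and Hspd1 sit near the line.

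The arms moved together only in part. Over precursor cells Spearman's rho between their sums was 0.30 in library 1 (2884 cells) and 0.32 in library 2 (3232 cells), a description of cells that share library and depth. It was 0.35 and 0.48 in Dpp4-type, 0.40 and 0.31 in F3-type and 0.32 and 0.36 in cluster 1, but 0.11 and 0.16 in committed cells and 0.09 and 0.15 in cluster 0. The immediate early sum followed a list of 35 other immediate early genes (0.44 and 0.43) more than 26 other heat shock and chaperone genes (0.22 and 0.21) or 13 genes of the unfolded protein response (0.05 and 0.06). It was weakly negative with the mitochondrial share (−0.26 and −0.20) and with total UMIs (−0.18 and −0.20). Their part in the relation of the arms was not tested.

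Cells were ranked by their immediate early sum and split into 4 equal groups within each library to set each chaperone beside it. The groups pool all precursor clusters, whose immediate early sums differ, and the part of cluster in the ratios was not tested. From the lowest to the highest group, mean Hspa1a went from 0.571 to 1.53 UMIs per cell in library 1 (ratio 2.68, interval 2.39 to 3.01) and from 0.444 to 1.41 in library 2 (3.17, 2.81 to 3.58). Hspa1b (3.52 and 2.49), Dnajb1 (1.94 and 2.37) and Hsph1 (1.94 and 1.56) were also higher in the highest group in both libraries. Hsp90aa1 (1.52 and 1.40), Hspa8 (1.45 and 1.42) and Dnaja1 (1.37 and 1.43) had smaller ratios, and Hspd1 (1.02 and 0.905) and Hspe1 (0.954 and 0.947) were level within their intervals. Hspb1 was at 1.33 (1.12 to 1.59) and 1.10 (0.88 to 1.37), so its interval lay above 1 only in library 1, and no difference in the mitochondrial pair was detectable beyond counting error.

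**Figure D5:**
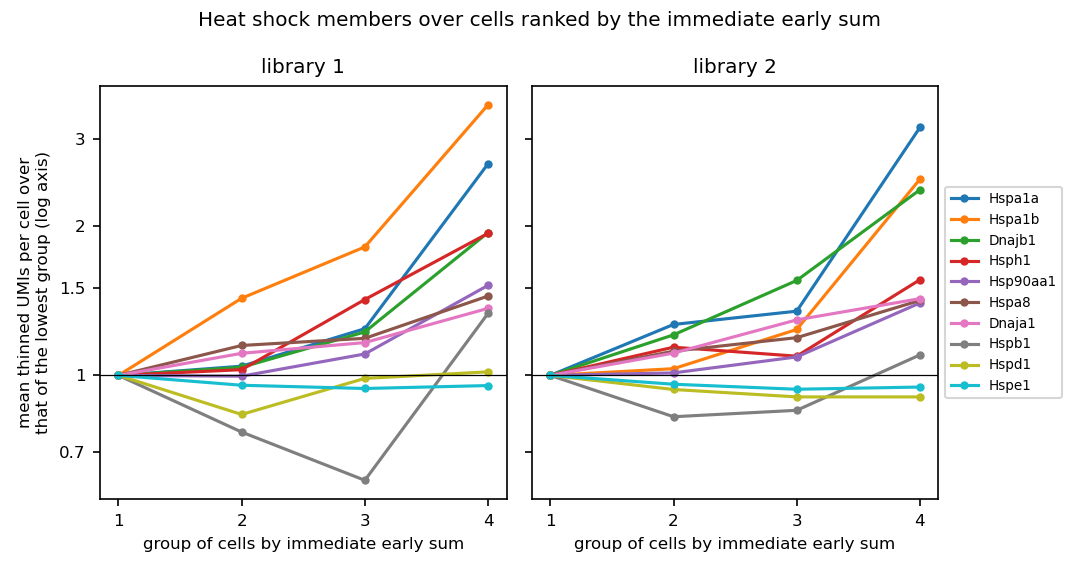
Lines give the mean thinned UMIs per cell of each heat shock gene in 4 equal groups of cells ranked by the immediate early sum, divided by its mean in the lowest group (log axis), for library 1 (721 cells per group) and library 2 (808). Hspa1a, Hspa1b and Dnajb1 end between 1.94 and 3.52, and Hspd1 and Hspe1 stay near 1. The groups pool all precursor clusters.

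Pairs of immediate early members were mostly weakly related over cells. Over 351 immediate early pairs the median rho over cells was 0.048 and 0.044, 7 pairs were at 0.3 or more in both libraries, and 66 were negative in both. The 7 were Fos with Egr1 (0.50 and 0.50) and Jun (0.46 and 0.43), Junb with Zfp36 (0.39 and 0.37), Fosb with Jund (0.36 and 0.44), Zfp36 with Socs3 (0.37 and 0.36), Egr1 with Zfp36 (0.35 and 0.35) and Jun with Egr1 (0.34 and 0.32). Fos was negative with Ier5 and with Maff in both libraries, in the same direction as the opposite order of these genes over the clusters. No heat shock pair exceeded 0.16 in library 1 or 0.19 in library 2, and no pair between arms 0.17 or 0.18. Some members had few UMIs per thinned cell, with means of 0.072 for Egr2, 0.115 for Hspa1b and 0.182 for Hsph1. Counting noise can hold rho low at such counts, and its part in these values was not tested.

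Within Dpp4-type cells (332 and 223 cells), the genes outside the module whose counts were most like the immediate early sum, of 2096 ranked by the lower rho of the libraries, were Id3 (0.41 and 0.42), Klf2 (0.39 and 0.52), Klf6 (0.39 and 0.56), Ugdh (0.37 and 0.38) and Klf4 (0.35 and 0.59). For the heat shock sum they included Klf2 (0.24 and 0.35), Ubb (0.21 and 0.28), Ppp1r15a (0.19 and 0.28) and Klf6 (0.18 and 0.37).

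The wider pathways were read from lists of further stress genes. Between committed and Dpp4-type cells, 24 of 35 other immediate early genes were compared, with 12 higher by 1.5-fold, 3 lower and a median log2 fold of 0.52. Among all genes of this comparison 10.7% were higher by that size and 20.2% lower. Phlda1 (2.06), Cebpb (2.05), Tnfaip3 (1.92), Trib1 (1.69) and Pim1 (1.57) led the higher ones, and Klf2 (−1.42) and Klf4 (−0.80) were lower. Of 26 other heat shock and chaperone genes 23 were compared, 3 were higher (Bag3, a co-chaperone of Hsp70, at 1.11, Dnajb4 at 0.73 and the small heat shock protein gene Cryab at 0.71) and 1 was lower, with a median of −0.064. Of 13 genes of the unfolded protein response of the endoplasmic reticulum 12 were compared and 1 was higher, Hspa5 (0.64), the chaperone BiP, with a median of −0.089. In F3-type cells, against the same Dpp4-type cells, 17 of 26 other immediate early genes were higher and 1 lower (median 1.02), 2 of 23 other heat shock genes higher and 0 lower, and 0 of 12 unfolded protein response genes higher and 1 lower. Among all genes of that comparison 12.1% were higher and 14.2% lower. In both comparisons the wider immediate early list thus lay above the all-gene median, while the other 2 lists lay near it. The higher shares of those 2 lists were 13.0% and 8.3% in committed cells, and 8.7% and 0% in F3-type cells. These were near or under the shares of all genes.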

How the data were processed

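The values are raw UMI counts as the authors deposited them, 1 per gene and barcode. The submitters' processing notes name Cell Ranger, Seurat 3.0.1 and the mm10 build without giving their roles, and per the labels the chemistry was 10x Genomics 3′ version 2. The members and lists were chosen with earlier results of these data known. Cells with at least 500 genes and at most 10% mitochondrial counts were kept. Scanpy 1.11.5 clustered them on 2000 variable genes, 30 components, 15 neighbours and Leiden resolution 0.5, without members, other listed stress genes, ribosomal or mitochondrial genes. Cell cycle genes were not left out. Naming a cluster needed 3 markers, and 33.3% of the list, at 20 CPM and 2-fold over other cells, thresholds taken from earlier results. Of the barcode sequences, 17 occurred in both libraries.

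Counts were summed per cluster and library and given as CPM of total UMIs, with libraries scaled by TMM (edgeR 4.0.16, scaling only). Ratios have conditional exact 95% intervals, and UMIs do not stand for replicates. Thinning left out 375 and 313 shallower kept cells. Named were the 5 members of each arm with the highest level, all past 1.5-fold in the main comparisons and the 3 with the highest Fano factor. Other listed genes needed 50 CPM and 1.5-fold, up to 5 per list and direction, and other members are given by their range or extremes. On simulated counts of 6877 genes with counting error only, 100 genes at 1.5-fold gave a median log2 fold of 0.58 and 95.4% of intervals held the true value. Some leading and most similar genes are not reported here. Promoter windows of Egr1, Egr3, Ier2, Myc, Hspa8 and Hsp90aa1 were not analysed here. Alternatives covered scaling (DESeq2 1.42.0 size factors among them), level minimum, clustering, cell filters, doublet scores, single libraries and thinning.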

Additional observations from a re-analysis of the deposited data

How the results depend on the processing

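Of 120 alternative values 63 stayed within their interval, 57 moved. For single members, Fos, Jun and Hspa1a turned from lower to higher between committed and Dpp4-type cells with the stricter cell filter. With that filter a cluster of 426 cells, with 5 of 12 Dpp4-type markers raised, took the erythroid name from 4 of 5 erythroid markers. Its cells were therefore not in the Dpp4-type class. The depth of the libraries limits low members such as Egr2, Egr3 and Hspa1b, and the naming of clusters limits every class. No paired analysis was possible because each diet has 1 library and no test was made. The alternative clusterings change the reference: of the cells named Dpp4-type, 51% of 1155 at Leiden resolution 1, 51.1% of 1365 with 3000 variable genes, 87.7% of 2476 with the stricter filter and 38.9% of 982 without the highest doublet scores came from cluster 0, and the stricter filter's class held 33.8% of cluster 2. Those values therefore compare other cells, not only another filter. With the stress genes among the variable genes no cluster took the Dpp4-type name, so the 6 class and library medians had no value there. The cause of the moves was not tested.

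The immediate early median of committed over Dpp4-type cells (0.48) was 0.69 with TMM, 0.70 with DESeq2 size factors, 0.42 with a minimum of 50 CPM, 0.36 with none, 0.67 at Leiden resolution 1, 0.66 with the stricter cell filter (1500 genes, 5% mitochondrial), and 0.64 and 0.62 in libraries 1 and 2 alone. That of F3-type cells (0.71) was 0.79 with TMM, 0.79 with DESeq2, 0.58 with 50 CPM, 0.55 with 3000 variable genes, 0.52 with the stricter filter, 0.62 without the highest doublet scores, 0.63 in library 1 and 0.64 with cluster 0 counted as Dpp4-type. The library median (−0.067) was 0.075 without the highest doublet scores.

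The heat shock median of committed cells (0.097) was 0.30 with TMM, 0.31 with DESeq2, 0.48 with the stricter filter, 0.27 without the highest doublet scores and 0.25 with cluster 0 added. That of F3-type cells (0.24) was 0.32 with TMM, 0.32 with DESeq2, −0.020 with 50 CPM, 0.44 with the stricter filter and 0.49 with cluster 0 added. The library median (0.0096) was −0.20 in committed cells.

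Over cells, the immediate early coefficient of variation was 0.461 and 0.482 in libraries 1 and 2 without Nfkbia, the member with most UMIs, and in library 2 0.472 unthinned and 0.547 in Dpp4-type cells. Its median per 10000 UMIs was 105.8 and 103.8 without Nfkbia and 112.5 in Dpp4-type cells of library 1. The heat shock coefficient was 0.546 and 0.498 at 3732 UMIs, 0.674 and 0.566 without Hspa8, 0.432 in Dpp4-type cells and 0.456 without the highest cell in library 1, and 0.473 unthinned in library 2. Its median was 12.06 in each library without Hspa8, 26.59 and 25.78 unthinned, 24.12 in Dpp4-type cells of each, and 26.8 at 3732 UMIs in library 2. The relation of the arms was 0.26 and 0.27 at 3732 UMIs, 0.22 and 0.25 without the most abundant members, 0.22 and 0.24 after removing cluster means, and 0.35 and 0.48 in Dpp4-type cells. Cluster 0 counted as Dpp4-type, Dpp4-type cells alone and leaving out the highest cell were chosen after seeing the data.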
